A study of Danio rerio with 36 samples.

Results

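The genes il7r, lck, zap70 and nitr1m, 4 of the 14781 gene symbols counted, were followed as lymphocyte genes in regenerating zebrafish caudal fins. They were taken by name, and each of them had an entry in all 18 RNA libraries. The question was how much lymphocyte transcript a fin held before amputation, during regrowth, and in sorted fibroblasts of the fin, and whether the 4 genes moved as a set. The study measured mRNA by stranded RNA-seq at set days post amputation (dpa) in caudal fin clips of the outbred Ekkwill (EK) strain, from fish aged 3 to 12 months. Each whole-fin library came from a pool of 15 fish and each fibroblast library from a pool of 75 fish.

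Batch 1 held wild-type whole fins at 4 dpa (n = 2) and uninjured at 0 dpa (n = 2). Batch 2 held wild-type whole fins labelled 1 dpa (n = 3) and labelled 0 dpa (n = 3). The names under which these 6 libraries were deposited give the batch 2 groups the other way round, so they are called labelled 1 dpa and labelled 0 dpa throughout. Exchanging them would turn the sign of every batch 2 change. Batch 3 held fibroblasts at 4 dpa (n = 2) and at 0 dpa (n = 2), and 1 library each of whole fins with the LEN deletion and of whole fins without it, at 2 and at 0 dpa. LEN is a regeneration enhancer linked to the leptin b gene lepb. The labels give no genotype for the batch 3 whole fins without the deletion, which are called wild type here. The fibroblast fish are labelled wild type but carried transgenes: the treatment protocol names Tg(tph1b:creER;ubi:switch), and the growth protocol names Tg(tph1b:mCherry-NTR;ubi:switch). In both, tph1b regulatory sequence drives the first transgene in fin fibroblasts. Their fins had been clipped, treated with 4 µM tamoxifen for 12 h at 2 dpa and left to regrow fully, so the cells at 0 dpa and at 4 dpa alike came from fins that had already regenerated once. The sort for mCherry is described for the accessibility libraries of the study only.

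The 4 genes cover successive steps of lymphocyte biology. il7r encodes the receptor chain for interleukin-7, a survival signal for lymphocytes. lck encodes the Src-family kinase that starts T cell receptor signalling by phosphorylating the receptor's tails, and zap70 encodes the kinase that docks on those tails and passes the signal on. In mammals both kinases also act in natural killer cells. nitr1m belongs to the nitr genes, a fish family of immune-type receptors with inhibitory and activating members, known from lymphocytes including natural killer-like cells. T cells are known to reside in the skin of adult zebrafish. In bulk tissue, fewer cells of a type and less RNA per cell cannot be told apart.

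Libraries held 19427984 to 43871436 reads on genes. Levels are given as CPM, read counts scaled by TMM to a common library size over the 18 libraries; gene lengths were not used, so levels are compared within a gene only. Gene calls are those of edgeR's quasi-likelihood test at a Benjamini-Hochberg adjusted p under 0.05. Calls were common: 65.5% of 11912 genes tested in whole fins at 4 against 0 dpa, 81.9% of 11851 in batch 2 and 53.9% of 12011 in fibroblasts. At 4 against 0 dpa, 49.7% of calls in whole fins and 51.5% in fibroblasts were higher calls; with libraries scaled by total count alone these shares were 72.7% and 67.7%, and the median log2 change of all genes moved to 0.44 in whole fins (against -0.01) and to 0.32 in fibroblasts (against 0). The label of the sort was checked against marker genes, in fibroblasts at 0 dpa against whole fins at 0 dpa. Of 14 fin fibroblast markers 13 were called higher and 1 lower, and 11 of 12 epidermal markers were called lower. The fin fibroblast marker pdgfrb was at 0 in all 18 libraries. Fibroblast libraries still held epidermal transcripts, at a summed 5357 to 5748 CPM at 4 dpa and 17885 to 38549 CPM at 0 dpa. They also held leukocyte transcripts. In the same comparison at 0 dpa, macrophage markers gave 7 higher and 4 lower calls of 16, with a median log2 change of 0.72. Markers of all leukocytes gave 2 higher and 4 lower calls of 9. The part of these cells in the lymphocyte values was not tested.

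In whole fins of batch 1, il7r, lck and zap70 fell at 4 dpa, beside 33% of genes tested that were called lower, and nitr1m was nearly absent. The interleukin-7 receptor gene il7r stood at 3.56 and 4.88 CPM at 4 dpa, against 23.2 and 24.2 CPM at 0 dpa. Its groups lay far apart, and both uninjured fins were above both regenerating fins. The log2 change of il7r was -2.59 (SE 0.179, adjusted p = 2.95e-06 by edgeR), a 6.03-fold lower level at 4 dpa. The kinase gene lck was at 4.63 and 4.74 CPM at 4 dpa, against 13.6 and 16.4 CPM at 0 dpa. The regenerating fins were nearly equal for lck, and the uninjured fins were higher without overlap. Its log2 change was -1.79 (SE 0.164, adjusted p = 1.5e-05 by edgeR).

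The second kinase gene, zap70, was at 4.07 and 4.85 CPM at 4 dpa, against 11 and 13.9 CPM at 0 dpa. Both regenerating fins were again below both uninjured fins. The log2 change of zap70 was -1.58 (SE 0.187, adjusted p = 6.78e-05 by edgeR). For nitr1m, the receptor gene, 0 and 3 reads were counted at 4 dpa, against 17 and 21 reads at 0 dpa. The gene was near the limit of detection in regenerating fins, and it passed the expression filter through its uninjured level alone, so its test adds no support. Scaled for depth, the 3 reads at 4 dpa were 22.4-fold fewer than the 38 reads at 0 dpa, with a 95% counting interval of 7.12 to 114. All reads at 4 dpa came from the second library, without which none was left. nitr1m shares sequence with other nitr genes, so its counts depend on how reads of near-identical copies were treated and are uncertain.

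**Figure D1:**
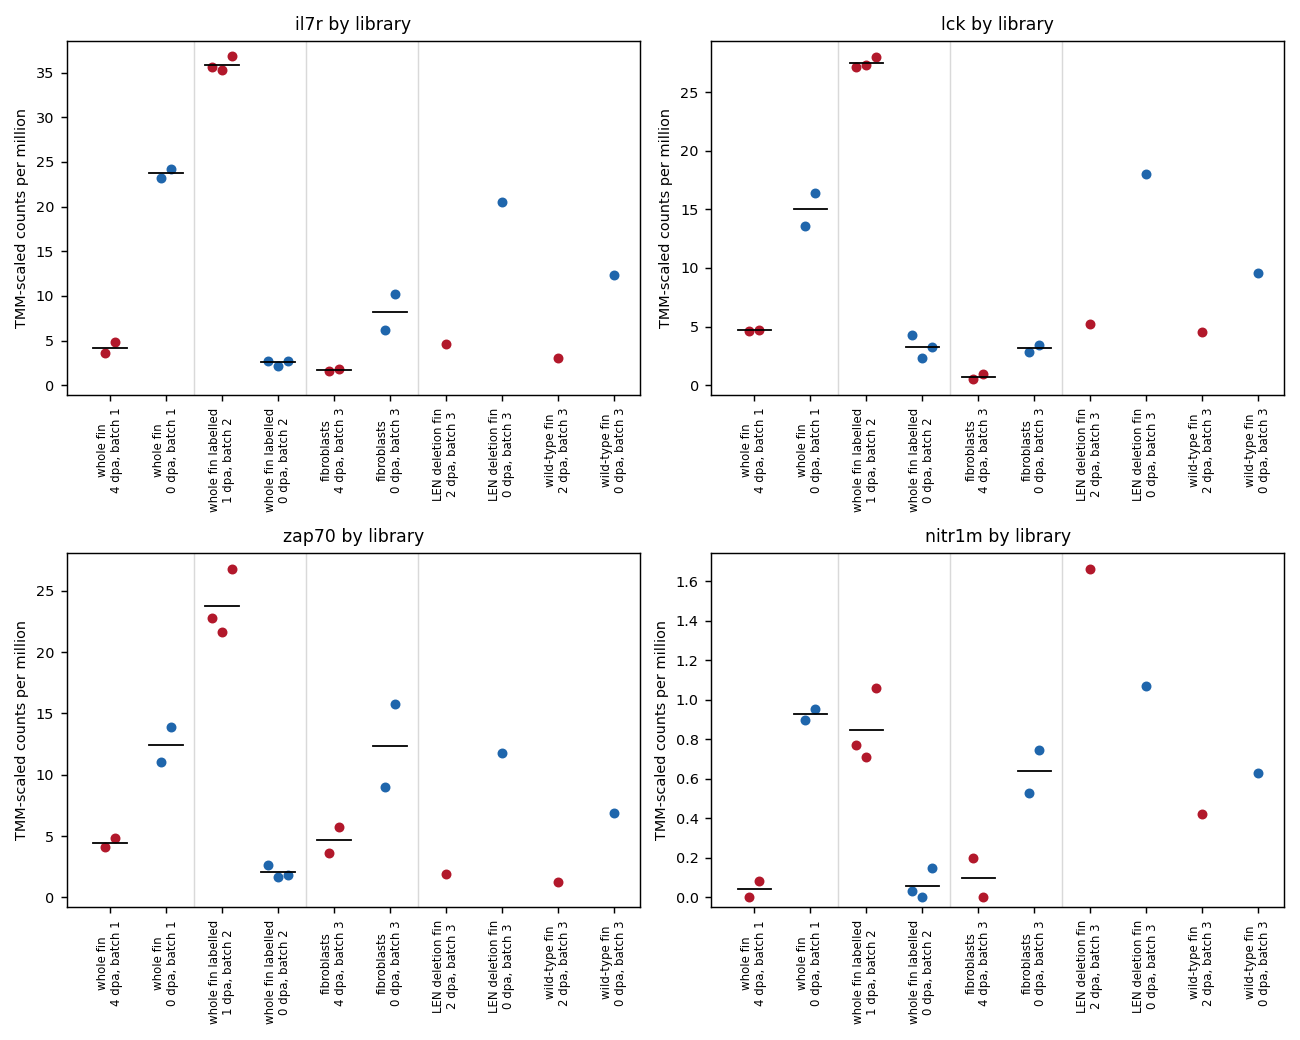
Levels (TMM-scaled CPM) of il7r, lck, zap70 and nitr1m in each of the 18 libraries (1 point per library, bars at the group mean where a group has replicates; later time or labelled 1 dpa in red, 0 dpa in blue). In whole fins of batch 1, il7r was at 3.56 and 4.88 at 4 dpa, below 23.2 and 24.2 at 0 dpa, while in batch 2 the libraries labelled 1 dpa were the high ones.

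The other genes of these pathways were counted in 6 lists. Of 24 T cell receptor signalling genes tested in whole fins at 4 against 0 dpa, 15 were called lower and 3 higher, with a median log2 change of -0.87 beside -0.01 over all genes. The kinase gene itk averaged 2.23 ± 0.199 CPM at 4 dpa and 12.8 ± 1.56 CPM at 0 dpa (SD, n = 2 each), a log2 change of -2.63. The membrane adaptor gene lat fell by 2.54 on the log2 scale, and ptpn22, a phosphatase gene whose product opposes lck, fell by 1.71. The co-receptor gene cd8a fell by 0.66, while cd4 had a log2 change of -0.4 that missed the threshold (edgeR adjusted p = 0.0524). The higher calls were plcg1, fyna and fynb, genes of signalling enzymes that many other cell types also use.

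Around il7r itself, 20 of 26 interleukin-7 and common gamma chain genes were called lower at 4 dpa and 1 was called higher, with a median of -1.16. The lower call of crlf2, at 0.247 ± 0.0698 CPM at 4 dpa (SD, n = 2), adds no support. This gene passed the expression filter through its level at 0 dpa alone. il2rb, a receptor chain for related interleukins, averaged 3.4 ± 0.374 CPM at 4 dpa and 29.8 ± 4.85 CPM at 0 dpa (SD, n = 2 each). pim1, a kinase gene that STAT5 switches on in mammals, averaged 116 ± 22.7 CPM at 4 dpa and 1174 ± 298 CPM at 0 dpa, and the survival gene mcl1b had a log2 change of -1.61. The 1 higher gene was socs3b, a feedback inhibitor of cytokine signalling. Several genes of this list, such as pim1 and mcl1b, are not specific to lymphocytes.

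Of 23 lymphocyte transcription factor genes, 15 were called lower and 5 higher at 4 dpa. The lower calls include eomesa, batf and tbx21, at 0.0558 ± 0.0409, 0.122 ± 0.132 and 0.289 ± 0.0489 CPM at 4 dpa (SD, n = 2 each). These genes passed the expression filter through their level at 0 dpa alone, so their calls add no support. tcf7 and lef1, which act in T cell development and also as Wnt effectors in other cells, had log2 changes of 3.18 and 3.38. stat4, a factor downstream of interleukin-12, had a log2 change of -1.77. Of 21 genes for lymphocyte traffic, 16 were called lower and 2 higher. Levels of ccl19b, a chemokine gene for cells with ccr7, averaged 1.02 ± 0.161 CPM at 4 dpa and 30.3 ± 5.54 CPM at 0 dpa (SD, n = 2 each). klf2a, a factor of lymphocyte exit and of vessel walls, averaged 110 ± 13.6 CPM at 4 dpa and 2428 ± 356 CPM at 0 dpa, and its paralogue klf2b had a log2 change of -2.44.

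Of all genes tested, 33% were called lower and 32.5% higher. Natural killer and cytotoxic genes gave 10 lower and 5 higher calls of 20. Of these, nitr4a and nitr6a fell by 3.56 and 3.36, and tnfrsf9a, a co-stimulatory receptor gene, had a log2 change of 3.18. Several genes of this list passed the expression filter through their high group alone, so their calls add no support. Among them were nitr6a, at 0.207 ± 0.0126 CPM at 4 dpa (SD, n = 2), and dicp2.1, with no read at 0 dpa. B cell genes gave 8 lower and 2 higher calls of 11. The lower call of zgc:171713, at 0.234 ± 0.0507 CPM at 4 dpa (SD, n = 2), adds no support for the same reason. Both higher B cell genes, prdm1a (log2 change 3.14) and blnk (2.57), stand for a plasma cell factor that other tissues also use and for a B cell adaptor, and bcl6ab, a germinal centre factor in mammals, had a log2 change of -1.45. Marker lists of other leukocytes were counted in the same libraries. Neutrophil markers were called higher for 1 and lower for 7 of 11, summing to 233 to 237 CPM at 4 dpa and 371 to 404 CPM at 0 dpa. Macrophage markers were called higher for 8 and lower for 4 of 16, with a median log2 change of 0.68. They summed to 3579 to 3981 CPM at 4 dpa and 4039 to 4350 CPM at 0 dpa. Most of this sum was 1 gene, apoeb, which averaged 3392 CPM at 4 dpa and 3834 CPM at 0 dpa and was not called. Markers of all leukocytes were called higher for 1 and lower for 4 of 9, summing to 351 to 428 CPM at 4 dpa and 414 to 541 CPM at 0 dpa. Endothelial markers were called higher for 10 of 10, summing to 205 to 239 CPM at 4 dpa and 84.6 to 98 CPM at 0 dpa. Fin fibroblast markers summed to 55583 to 64568 CPM at 4 dpa and 6803 to 7135 CPM at 0 dpa, and epidermal markers to 38081 to 42016 CPM at 4 dpa and 115952 to 141409 CPM at 0 dpa. The part of this shift in the lower lymphocyte values was not tested.

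**Figure D2:**
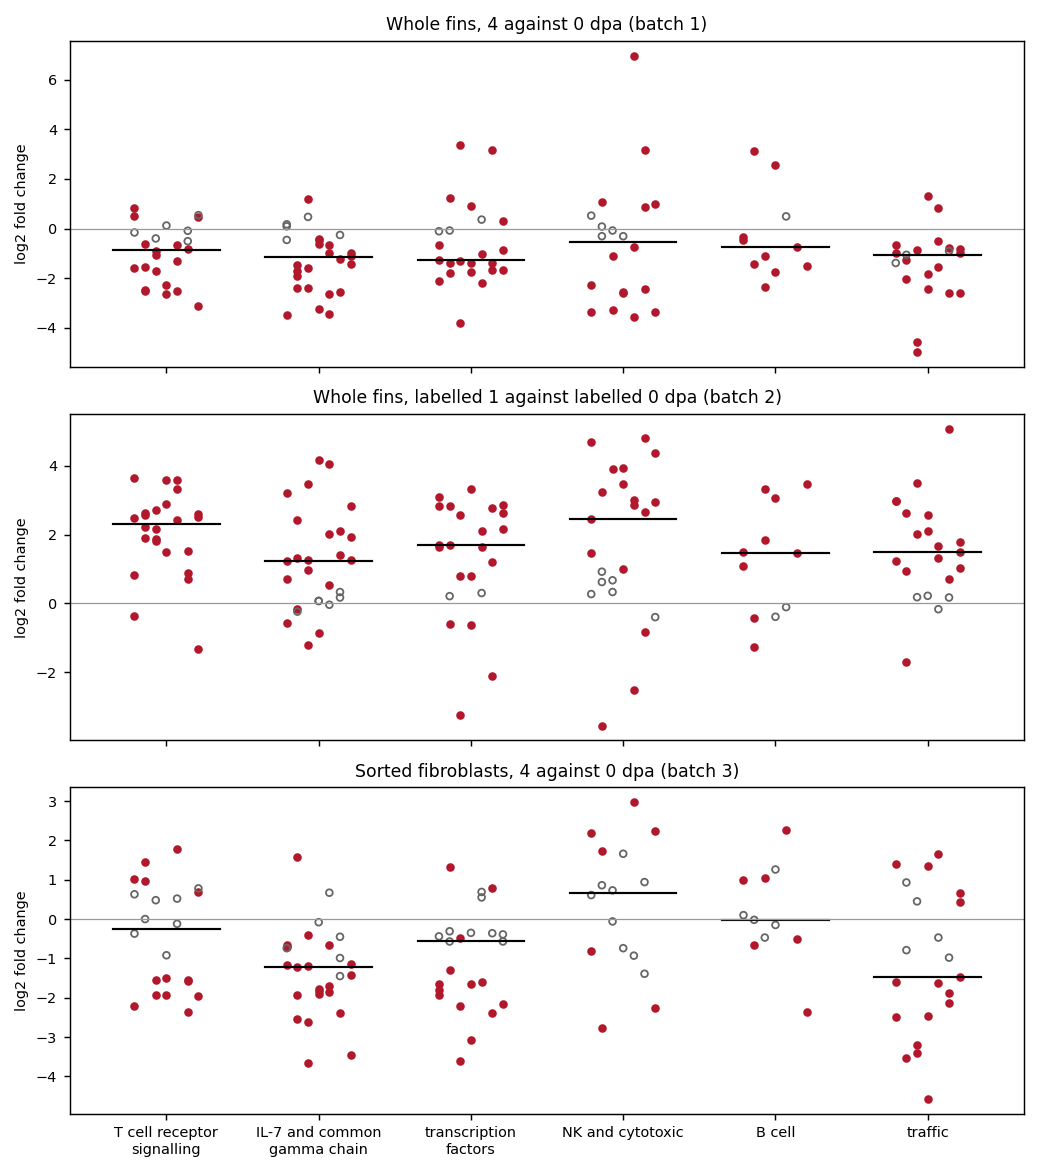
Log2 fold changes (vertical axis) of the tested genes of 6 lists in the 3 within-batch comparisons; filled points passed an edgeR adjusted p of 0.05, open points did not, and bars mark the list medians. The bars lie between -1.29 and -0.53 in whole fins at 4 against 0 dpa and above 0 in batch 2; the highest point of the first panel is dicp2.1, which had no read at 0 dpa, so that its fitted change is no measure of size.

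In batch 2, il7r, lck and zap70 were higher in the fins labelled 1 dpa than in the fins labelled 0 dpa, beside 42% of genes tested that were called higher and 39.9% called lower. il7r was at 35.6, 35.3 and 36.8 CPM in fins labelled 1 dpa, against 2.75, 2.17 and 2.76 CPM in fins labelled 0 dpa. The replicates of each group were close to each other and the groups lay far apart. The log2 change of il7r was 3.87 (SE 0.0949, edgeR adjusted p = 3.1e-09). lck was at 27.1, 27.3 and 28 CPM in fins labelled 1 dpa, against 4.24, 2.35 and 3.25 CPM in fins labelled 0 dpa, a log2 change of 3.13 (SE 0.166, edgeR adjusted p = 5.17e-07). zap70 was at 22.8, 21.6 and 26.8 CPM in fins labelled 1 dpa, against 2.62, 1.64 and 1.85 CPM in fins labelled 0 dpa, a log2 change of 3.61 (SE 0.165, edgeR adjusted p = 1.34e-07). Neither kinase gene had overlapping groups. nitr1m had 24, 23 and 36 reads in fins labelled 1 dpa, against 1, 0 and 5 reads in fins labelled 0 dpa. Its summed reads were 14.1-fold higher in fins labelled 1 dpa (95% counting interval 6.22 to 39.6). It passed the expression filter through that group alone, so its test adds no support. Of the 6 reads in fins labelled 0 dpa, 5 were in the third library; without it the fitted log2 change was 5.53.

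In each pathway list, most genes tested were called higher in fins labelled 1 dpa. The counts include genes that passed the expression filter through that group alone. T cell receptor signalling genes were called higher for 22 and lower for 2 of 24 in fins labelled 1 dpa, with fyna (log2 change 2.61) among them. Transcription factor genes gave 17 higher and 4 lower calls of 23, including rorca, a factor of innate-like and helper lymphocytes, with 24.1 ± 1.32 CPM in fins labelled 1 dpa and 3.7 ± 0.345 CPM in fins labelled 0 dpa (SD, n = 3 each). Interleukin-7 list genes gave 17 higher and 4 lower calls of 27, and il15, the gene of a cytokine that sustains natural killer cells, had a log2 change of 3.21. Of 21 traffic genes 16 were called higher and 1 lower. The log2 change of ccl25b, a chemokine gene known from the thymus, was 2.56. That of the chemokine receptor gene ccr7 was 5.07. ccr7, at 0.16 ± 0.0406 CPM in fins labelled 0 dpa (SD, n = 3), passed the expression filter through its high group alone, so its call adds no support. Natural killer genes gave 14 higher and 3 lower calls of 23 (22 higher with DESeq2 and 25 without the expression filter, which let more genes of the list be tested). In this list several nitr genes passed the filter through their high group alone, so their calls add no support. Among them was nitr2b, at 0.15 ± 0.0747 CPM in fins labelled 0 dpa (SD, n = 3). The nitr genes other than nitr1m together had 27, 24 and 40 reads in the fins labelled 0 dpa. B cell genes gave 7 higher and 2 lower calls of 11, with blk, a Src-family kinase gene, at a log2 change of 3.31. Markers of all leukocytes summed to 602 to 686 CPM in fins labelled 1 dpa and 274 to 415 CPM in fins labelled 0 dpa, and macrophage markers to 3030 to 3277 CPM in fins labelled 1 dpa and 1402 to 1613 CPM in fins labelled 0 dpa. Neutrophil markers summed to 324 to 477 CPM in fins labelled 1 dpa and 592 to 721 CPM in fins labelled 0 dpa. By gene, however, 5 of the 11 tested were called higher and 3 lower, with a median log2 change of 0.4.

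**Figure D3:**
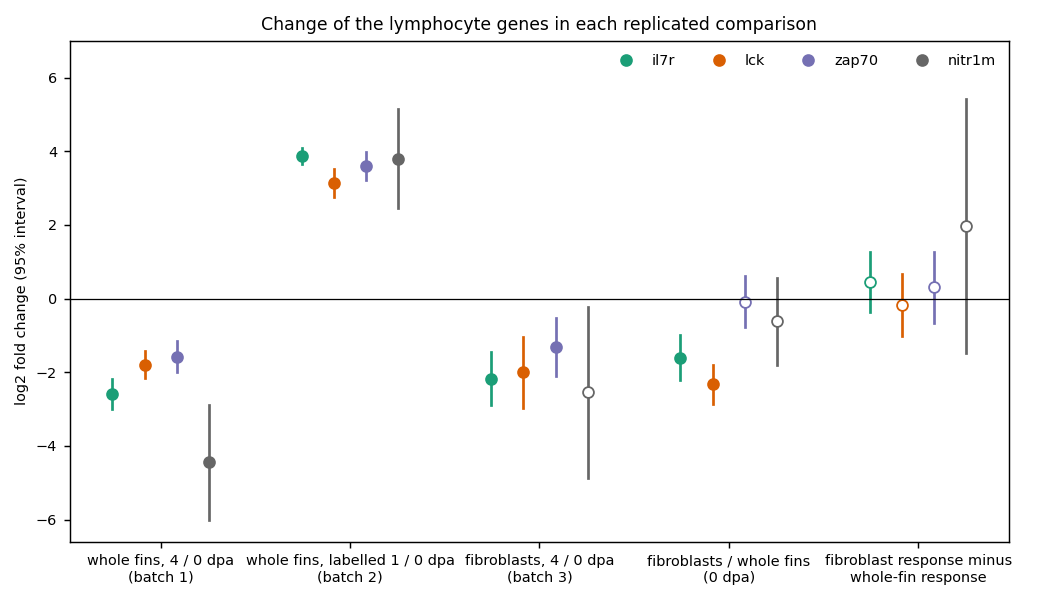
Log2 fold changes of the 4 genes with 95% intervals in the 5 comparisons with replicates (horizontal axis); filled points passed an edgeR adjusted p of 0.05 and open points did not; nitr1m entered the 3 within-batch comparisons through its high group alone. il7r, lck and zap70 are below 0 in whole fins at 4 against 0 dpa and above 0 in batch 2, and zap70 is at -0.08 in fibroblasts against whole fins where lck is at -2.33.

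In sorted fibroblasts, il7r, lck and zap70 fell at 4 dpa, beside 26.2% of genes tested that were called lower, and nitr1m missed the threshold. il7r was at 1.58 and 1.82 CPM at 4 dpa, against 6.23 and 10.2 CPM at 0 dpa, a log2 change of -2.18 (SE 0.323, edgeR adjusted p = 0.000388). lck was at 0.495 and 0.974 CPM at 4 dpa, from 20 and 39 reads, against 2.84 and 3.46 CPM at 0 dpa, from 102 and 111 reads. No library of either gene at 4 dpa reached a library at 0 dpa. The log2 change of lck was -2 (SE 0.434, edgeR adjusted p = 0.00361). zap70 was at 3.64 and 5.74 CPM at 4 dpa, against 8.96 and 15.8 CPM at 0 dpa, a log2 change of -1.31 (SE 0.336, edgeR adjusted p = 0.0118). The groups did not overlap for zap70, and the libraries at 0 dpa differed from each other more than those at 4 dpa. The lck and zap70 calls rested on the first library at 4 dpa: without it the changes were -1.61 and -1.03, with edgeR adjusted p = 0.0642 for lck and 0.127 for zap70. nitr1m had 8 and 0 reads at 4 dpa, against 19 and 24 reads at 0 dpa. Its log2 change was -2.54 (edgeR adjusted p = 0.0629), and by counting error alone its summed reads at 4 dpa were 6.36-fold fewer (95% interval 2.95 to 15.7). nitr1m passed the expression filter through its level at 0 dpa alone, so its test adds no support. With 1 library left out in turn, its fitted log2 change ran from -7.5 to -1.54, and whether it was called depended on the library.

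Among the pathway lists in fibroblasts, T cell receptor signalling genes gave 9 lower and 5 higher calls of 22, and 4 lower and 3 higher calls when either library at 4 dpa was left out. Within the list, the lymphocyte kinase gene itk averaged 0.509 ± 0.021 CPM at 4 dpa and 2.09 ± 0.228 CPM at 0 dpa (SD, n = 2 each), and lat averaged 0.46 ± 0.0145 CPM at 4 dpa and 1.89 ± 0.545 CPM at 0 dpa; both fell. The co-receptor genes parted: cd8a had a log2 change of -1.49 and cd4, which zebrafish macrophages also express, one of 0.98. tagapa (71.3 ± 1.89 CPM at 4 dpa and 294 ± 35.1 CPM at 0 dpa), nfatc1 (log2 change -1.54) and fyna (-2.36) also fell; tagapa and nfatc1 were higher in fibroblasts than in whole fins at 0 dpa, by 4.51 and 4.52 on the log2 scale. Interleukin-7 list genes gave 20 lower and 1 higher calls of 27 (13 lower without the first library at 4 dpa), with log2 changes of -3.46 for il15, -2.4 for the kinase gene pim2 and -1.85 for pim1. In fibroblasts against whole fins at 0 dpa, this list gave 14 higher and 4 lower calls of 28, beside 33.1% and 32.5% of all genes. pim2 and pim1 were higher in fibroblasts there, by 2.89 and 1.32 on the log2 scale, and il15 was not called. Which cells carried the fall at 4 dpa was not tested.

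Of the 23 transcription factor genes tested in fibroblasts, 12 were called lower and 2 higher at 4 dpa, and 7 lower without either library at 4 dpa. tox, runx3 and gata3, which act in T cells and also elsewhere, had log2 changes of -2.17, -1.81 and -2.38. Some lower calls in fibroblasts were of genes that passed the expression filter through 0 dpa alone, and these add no support. Among them were eomesa and batf, and socs3a and ccr7 of other lists, at 0.174, 0.186, 0.137 and 0.137 CPM at 4 dpa. Traffic genes gave 11 lower and 5 higher calls of 21, 7 lower without either library at 4 dpa, with cxcl12a, a chemokine gene made by stromal cells, at 272 ± 3.2 CPM at 4 dpa and 1638 ± 99 CPM at 0 dpa (SD, n = 2 each). Natural killer list genes gave 3 lower and 4 higher calls of 16, shares no larger than the 26.2% lower and 27.8% higher of all genes tested. Here dicp2.1 and dicp3.1, genes of another immune receptor family of fish, had log2 changes of 2.97 and 2.24. dicp2.1, at 0.373 ± 0.134 CPM at 0 dpa (SD, n = 2), passed the expression filter through its level at 4 dpa alone, so its call adds no support. B cell list genes gave 3 lower and 3 higher calls of 11, also near the shares of all genes. The higher ones were cd22, an inhibitory receptor gene (2.27), lyn, a Src-family kinase gene (1), and syk, the kinase gene most related to zap70 (1.05); lyn and syk are also used by myeloid cells, and neither was called without the first library at 4 dpa (edgeR adjusted p = 0.0613 and 0.0741). Myeloid markers rose where il7r, lck and zap70 fell: macrophage markers gave 10 higher and 0 lower calls of 16, summing to 1284 to 1371 CPM at 4 dpa and 874 to 1094 CPM at 0 dpa. Markers of all leukocytes summed to 772 to 789 CPM at 4 dpa and 267 to 446 CPM at 0 dpa, with none at 0, and epidermal markers gave 8 lower and 0 higher calls of 11. The part of these other cells in the lymphocyte values was not tested.

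Whether the fibroblast and the whole-fin responses at 4 dpa differed was tested directly. The fibroblast fish also differed by batch, transgenes, tamoxifen treatment and earlier regrowth, which cannot be told apart from sample kind here. None of the 4 genes was called, beside 36.3% of 12442 genes. The difference of the log2 changes, fibroblasts minus whole fins, was 0.45 for il7r (95% interval -0.36 to 1.27), -0.18 for lck (-1.02 to 0.66), 0.31 for zap70 (-0.65 to 1.27) and 1.97 for nitr1m (-1.49 to 5.43). The intervals leave room for responses that differ by more than 2-fold for each gene. For all genes, 52% of calls of this difference were higher, and 38.9% with libraries scaled by total count alone.

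At 0 dpa, il7r and lck were lower in fibroblasts than in whole fins of batch 1, while zap70 and nitr1m were not called; of 12014 genes tested, 32.5% were called lower and 65.6% in either direction. il7r was at 6.23 and 10.2 CPM in fibroblasts, against 23.2 and 24.2 CPM in whole fins (log2 change -1.6, SE 0.26, edgeR adjusted p = 0.000986). lck was at 2.84 and 3.46 CPM in fibroblasts, against 13.6 and 16.4 CPM in whole fins (log2 change -2.33, SE 0.234, edgeR adjusted p = 6.63e-05). Neither gene had overlapping groups. zap70 was at 8.96 and 15.8 CPM in fibroblasts, against 11 and 13.9 CPM in whole fins, and these ranges overlapped. Its log2 change was -0.08 (95% interval -0.78 to 0.62, edgeR adjusted p = 0.827), and -0.55 without the second fibroblast library, when it was called (edgeR adjusted p = 0.0451). nitr1m was at 0.528 and 0.747 CPM in fibroblasts, against 0.899 and 0.954 CPM in whole fins, and was not called (log2 change -0.62, edgeR adjusted p = 0.312). Sample kind cannot be told apart from batch in this comparison, nor from the transgenes, tamoxifen treatment and earlier regrowth of the fibroblast fish. Against the single wild-type whole fin of batch 3, lck was still called (-1.59, edgeR adjusted p = 0.0152), il7r was not (-0.57, adjusted p = 0.276), and zap70 was at 0.87 (adjusted p = 0.158).

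The 2 kinase genes were therefore set against each other within each library, as a ratio of their read counts, a measure chosen after its values were seen. The ratio of zap70 to lck reads was 7.35 and 5.9 in fibroblasts at 4 dpa and 3.16 and 4.59 in fibroblasts at 0 dpa, against 0.273 to 1.02 (median 0.754) in the 14 whole-fin libraries. No whole-fin library of any batch, time or genotype reached a fibroblast library. The single whole fins of batch 3, the batch of the fibroblasts, were at 0.361 (LEN deletion) and 0.273 (wild type) at 2 dpa and at 0.654 and 0.718 at 0 dpa. Against the 4 whole fins of batch 1, the mean log2 ratio was higher by 2.5 in fibroblasts, a 5.66-fold difference, given as a description with no test. The ratio of il7r to lck was 1.87 to 3.2 in fibroblasts and 0.649 to 1.7 in whole fins, and the ratio of zap70 to il7r 1.44 to 3.15 in fibroblasts and 0.407 to 1.14 in whole fins. Other T cell genes gave mixed ratios to lck: cd8a 1.14 to 2.35 in fibroblasts and 0.177 to 0.732 in whole fins, cd4 3.08 to 42.6 in fibroblasts and 0.595 to 1.82 in whole fins, and itk 0.538 to 1 in fibroblasts and 0.247 to 0.868 in whole fins, where the ranges overlapped. As a description over the 14 whole-fin libraries, lck and zap70 levels had a Pearson correlation of 0.958 on the log2 scale, over all 18 libraries 0.674, and without batch 2 (12 libraries) 0.388; the libraries share batches and pools of the same kind.

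**Figure D4:**
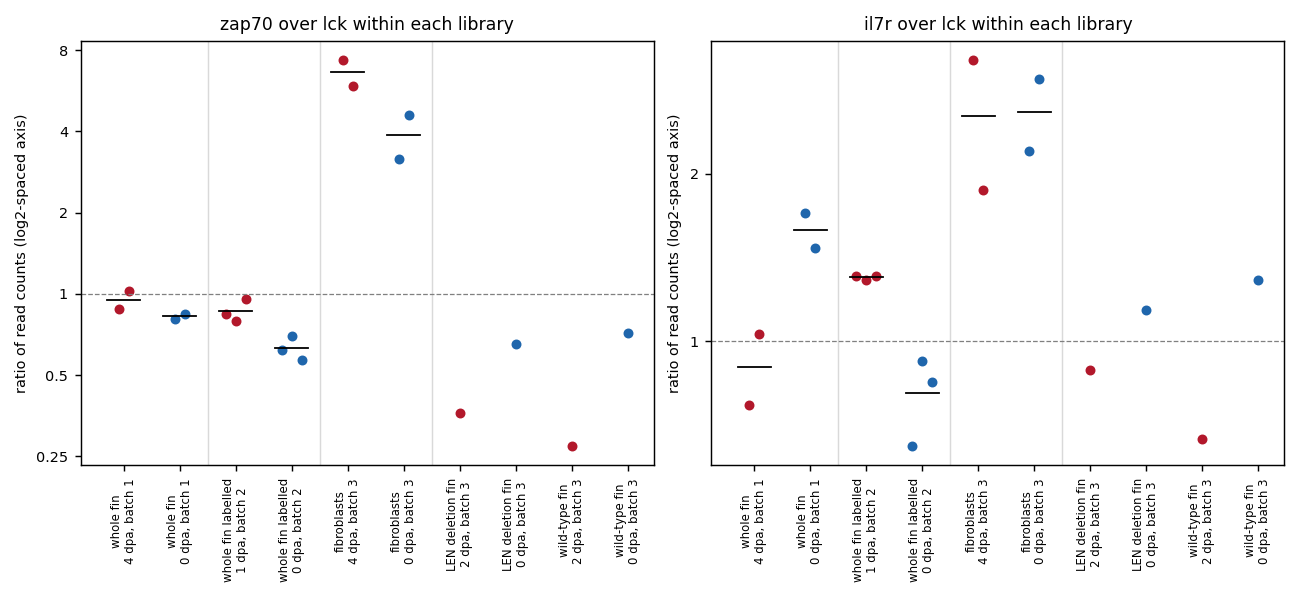
Ratio of read counts within each library (log2-spaced vertical axis) of zap70 to lck and of il7r to lck; 1 point per library, bars at the group mean. The 4 fibroblast libraries lie at 3.16 to 7.35 for zap70 over lck, above all 14 whole-fin libraries, which lie at 0.273 to 1.02.

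The LEN deletion and wild-type fins of batch 3 had 1 library each, so they were compared without a test; intervals cover counting error only, and levels here are scaled among these 4 libraries. At 0 dpa, il7r was at 24.3 CPM (95% interval 22.4 to 26.2) in the LEN deletion fin and 14.2 CPM (12.8 to 15.8) in the wild-type fin, a log2 ratio of 0.77 (0.58 to 0.96). lck had 573 reads in the LEN deletion fin and 273 in the wild-type fin, a log2 ratio of 0.94 (0.73 to 1.15). zap70 was at 13.9 CPM in the LEN deletion fin and 7.94 CPM in the wild-type fin, a log2 ratio of 0.81 (0.55 to 1.06). The intervals of these 3 genes lie above 0. None of these ratios passed 2-fold under this scaling, but the intervals of lck and zap70 include 2-fold. With libraries scaled by total count, the ratio of lck was 1.02 on the log2 scale. Of 11783 genes, 2.52% passed 2-fold upward and 1.37% downward. nitr1m, with 34 and 18 reads, had a log2 ratio of 0.79 (-0.08 to 1.7). Scaled over the 18 libraries instead, markers of all leukocytes summed to 520 CPM in the LEN deletion fin and 402 CPM in the wild-type fin. Macrophage markers summed to 2595 CPM in the LEN deletion fin and 2718 CPM in the wild-type fin. Scaled among the 4 libraries, the median log2 ratio was 0.55 for markers of all leukocytes and 0.59 for macrophage markers. Whether the genotype or the pool carries these differences cannot be told apart with 1 library each.

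Regenerating fins at 2 dpa were compared in the same way. il7r was at 5.36 CPM in the LEN deletion fin and 3.48 CPM in the wild-type fin, and zap70 at 2.18 CPM in the LEN deletion fin and 1.43 CPM in the wild-type fin, with log2 ratios of 0.62 (0.25 to 1) and 0.61 (0.02 to 1.22). lck, at 6.04 CPM in the LEN deletion fin and 5.22 CPM in the wild-type fin, had a log2 ratio of 0.21 (-0.11 to 0.54). nitr1m had the widest gap of the 4, with 54 reads in the LEN deletion fin and 14 in the wild-type fin, a log2 ratio of 1.99 (1.12 to 2.95); 1.2% of genes passed 2-fold upward.

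At 2 against 0 dpa, il7r, lck and zap70 were each lower in both genotypes, by more than 2-fold as estimated. Of all genes used, 17.4% were past 2-fold downward in LEN deletion fins and 15.9% in wild-type fins. The log2 ratio of il7r was -2.18 in LEN deletion fins (5.36 CPM at 2 dpa and 24.3 CPM at 0 dpa) and -2.03 in wild-type fins (3.48 CPM at 2 dpa and 14.2 CPM at 0 dpa). That of lck was -1.82 (-2.07 to -1.57) in LEN deletion fins and -1.08 (-1.38 to -0.79) in wild-type fins, where the interval includes 2-fold. That of zap70 was -2.67 (-3.09 to -2.28) in LEN deletion fins and -2.48 (-3 to -1.99) in wild-type fins. nitr1m had log2 ratios of 0.61 (-0.03 to 1.28) in LEN deletion fins and -0.58 (-1.7 to 0.51) in wild-type fins, and both intervals include 0. T cell receptor signalling genes were more than 2-fold lower for 16 of 24 in LEN deletion fins and 14 of 24 in wild-type fins, and 1 gene was more than 2-fold higher in each.

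The rest of the nitr family was summed beside nitr1m. It had 28 other entries, of which 5 had no read in any library. Their summed level was 1.95 and 1.81 CPM in whole fins at 4 dpa, against 13.1 and 16.4 CPM at 0 dpa of batch 1. In batch 2 it was 13.4, 11.8 and 12.7 CPM in fins labelled 1 dpa, against 0.854, 0.715 and 1.17 CPM in fins labelled 0 dpa. Fibroblasts held 1.71 and 1.82 CPM at 4 dpa and 2.34 and 3.24 CPM at 0 dpa. The other nitr genes summed to at most 3.24 CPM in every fibroblast library, while nitr1m alone at 0 dpa was not called between fibroblasts and whole fins. nitr1m made up 18.4% and 18.8% of nitr reads in fibroblasts at 0 dpa, from 19 and 24 nitr1m reads, against 6.44% and 5.5% in whole fins at 0 dpa of batch 1. In fibroblasts at 4 dpa its share was 10.4% and 0%. In the LEN deletion fin at 2 dpa the other nitr genes summed to 1.78 CPM and nitr1m was 48.2% of nitr reads, against 2.31 CPM and 15.4% in the wild-type fin at 2 dpa. At 0 dpa these shares were 8.23% in the LEN deletion fin and 5.39% in the wild-type fin.

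**Figure D5:**
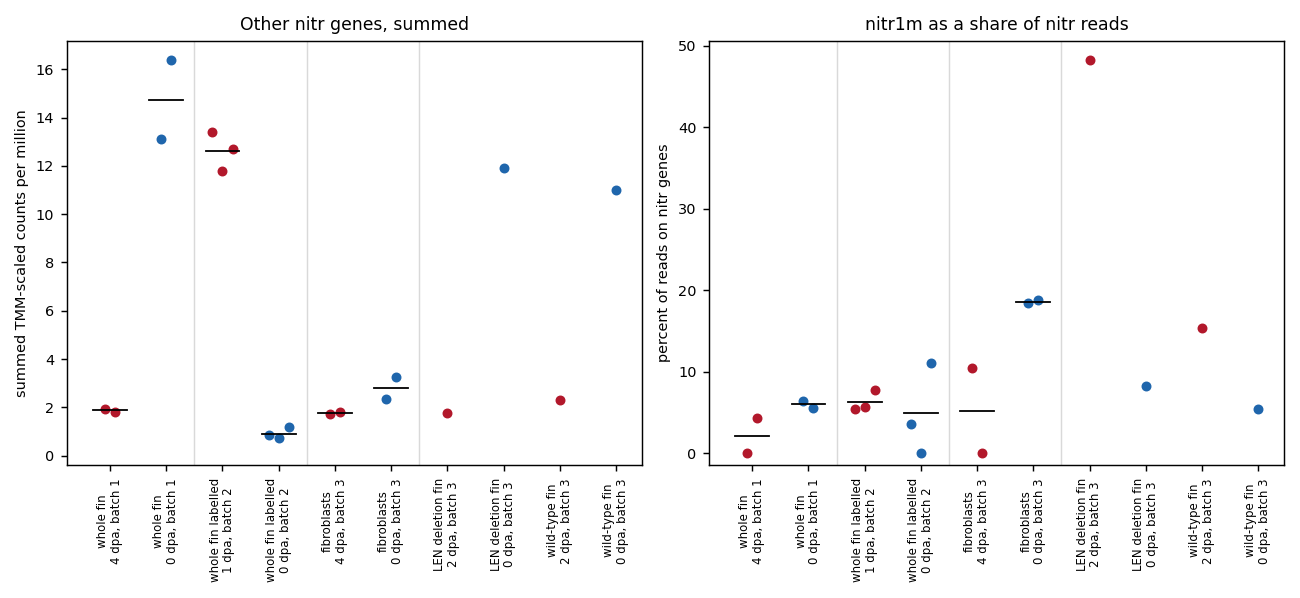
Summed level of the other nitr genes (left, TMM-scaled CPM) and nitr1m as a percent of all nitr reads (right) in each library; bars mark group means. The LEN deletion fin at 2 dpa is at 48.2% on the right, above the other 17 libraries, with a summed level of 1.78 CPM on the left.

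Set in order over the 6 replicated groups, il7r levels averaged 35.9 CPM in fins labelled 1 dpa, 23.7 in whole fins at 0 dpa of batch 1, 8.24 in fibroblasts at 0 dpa, 4.22 in whole fins at 4 dpa, 2.56 in fins labelled 0 dpa and 1.7 in fibroblasts at 4 dpa, with no overlap between neighbours. lck kept the same first pair of groups and the same last one; fins labelled 0 dpa (2.35 to 4.24 CPM) and fibroblasts at 0 dpa (2.84 to 3.46 CPM) overlapped. For zap70, fibroblasts and whole fins overlapped at 0 dpa and again at 4 dpa (3.64 to 5.74 CPM in fibroblasts, 4.07 to 4.85 CPM in whole fins), and fins labelled 0 dpa were lowest at 2.04 ± 0.519 CPM (SD, n = 3). nitr1m separated only into a high set (whole fins at 0 dpa of batch 1, fins labelled 1 dpa and fibroblasts at 0 dpa, 0.528 to 1.06 CPM) and a low set (the other 3 groups, 0 to 0.198 CPM).

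Among 9828 other genes averaging at least 1 CPM, those most like each gene over the 18 libraries were named by the Pearson correlation of log2(CPM + 0.5), as a description. For il7r they were ms4a17c.1 (0.984), scin (0.979), prkcha (0.978) and cd247l (0.978), the last named as a homologue of the T cell receptor zeta chain. Genes close to lck included nos2a (0.976), cd74b (0.975), a gene of the antigen-presentation chaperone, and ftr14 (0.974). For zap70 they were ccl33.3 (0.975), ikzf1 (0.97), the Ikaros gene of lymphocyte development, pdxp (0.963) and camk4 (0.955). The genes most like nitr1m were rtfdc1 (0.875), tmem30c (0.861), tesca (0.852) and actn2b (0.831), less close than for the other 3. Without batch 2, over 12 libraries, the same pairs had correlations of 0.956 to 0.973 for il7r, 0.971 to 0.98 for lck, 0.902 to 0.951 for zap70 and 0.785 to 0.857 for nitr1m. The points share batches and depth.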

How the data were processed

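Per the file headers, the authors deposited whole read counts, 1 table for each library, listing 14781 gene symbols and the 5 summary entries that htseq-count writes. The submitters' processing notes name danRer10 as the build and list HTSeq 1.6.1, TopHat2 2.1.1, MACS2, Picard 1.91, SAMtools 1.5, Bowtie2 2.2.5 and Trim Galore in versions 0.4.1 and 0.6.4, without saying which served the RNA libraries. No source used here gives the annotation or whether counting used strand, so overlapping and antisense genes may share reads. Reads on no gene (26.5 to 39% of a library) and the other summary entries stayed out of library sizes and tests. The 18 accessibility samples of the 36 were not analysed here.

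Counts were tested with edgeR 4.0.16 in R 4.3.3 (TMM, its expression filter, robust quasi-likelihood F test, two-sided, Benjamini-Hochberg over all genes tested, called at an adjusted p under 0.05), each of the 5 comparisons on its own libraries without covariates; the difference of responses was a contrast of 4 groups. The procedure was tested on simulated counts. The alternatives were DESeq2 1.42.0, its size factors, library size alone, no filter, the replicate number as a block, 1 fit of all replicated groups, and each library left out. Single libraries have exact Poisson or exact conditional 95% intervals, which cover counting error only, as do those of nitr1m. For them, genes with at least 40 reads in the 4 libraries were used. Where the labels call libraries replicates they are separate pools; the protocols describe triplicates, and 2 libraries a group were analysed here in batches 1 and 3.

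The genes, the lists and the tests were chosen with earlier results of these data known. Lists held 302 symbols, of which 239 entries were found in the data, 14 by an older symbol. Genes were named by rule: the 4 genes; from each list the 3 with the smallest p in whole fins at 4 against 0 dpa and, where not yet named, the 3 smallest in the other within-batch comparisons; and the 4 genes most like each, of which 1 is not reported here. cd4, cd8a, plcg1, fynb, socs3b, socs3a, crlf2, eomesa, batf, tbx21 and zgc:171713 were named after their values were seen. So were itk, lat, il15 and ccr7 where the rule does not reach them. The planned ratio to ptprc was not computed because no entry of that name was in the tables. The gene table at hand is of another assembly (GRCz12tu) and gave older symbols only, so no coordinates or sequences are given.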

Additional observations from a re-analysis of the deposited data

Results flagged for a closer look

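All 4 genes had a fitted change in batch 2 opposite to that in batch 1. nitr1m entered both comparisons through its high group alone, so its fitted changes add no support. In fins labelled 1 against labelled 0 dpa the log2 changes were 3.87 for il7r, 3.13 for lck, 3.61 for zap70 and 3.8 for nitr1m, while at 4 against 0 dpa in batch 1 they were -2.59 for il7r, -1.79 for lck, -1.58 for zap70 and -4.45 for nitr1m; every library of each batch followed its group, and the difference between the batches was not tested. The names under which the batch 2 libraries were deposited give its groups the other way round, which would turn each of these signs. The log2 ratio of nitr1m at 2 against 0 dpa had opposite signs in the genotypes, 0.61 (counting interval -0.03 to 1.28) in LEN deletion fins and -0.58 (-1.7 to 0.51) in wild-type fins; both intervals include 0 and overlap, and with 1 library per group the difference was not tested.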

How the results depend on the processing

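In whole fins, il7r, lck and zap70 kept their direction and their call in all 10 alternatives of the batch 1 comparison and all 12 of the batch 2 comparison; il7r ranged from -2.84 to -2.13 in batch 1 and from 3.76 to 3.97 in batch 2. In fibroblasts at 4 against 0 dpa, il7r kept its call in all 10 (-2.53 to -1.79). With 1 library left out in turn, lck ranged from -2.53 to -1.61, zap70 from -1.7 to -0.85 and nitr1m from -7.5 to -1.54. In 1 fit of all replicated groups nitr1m was called (-2.64, edgeR adjusted p = 0.0134), and its call also changed with the library left out. Since nitr1m entered the fibroblast comparison through its level at 0 dpa alone, its calls there add no support. Between fibroblasts and whole fins at 0 dpa, zap70 turned to 0 in 1 fit of all groups and to 0.87 against the wild-type fin of batch 3, and ran from -0.55 to 0.28 with 1 library left out, passing the threshold at -0.55 without the second fibroblast library at 0 dpa (adjusted p = 0.0451). Against that fin il7r was -0.57 (adjusted p = 0.276) and nitr1m 0.03. The differences of responses changed sign with 1 library left out, ranging from -0.06 to 0.7 for il7r, -0.72 to 0.2 for lck, -0.24 to 0.6 for zap70 (-0.05 and -0.03 in between) and -2.84 to 5.42 for nitr1m; none was called. The causes were not tested. Where a group was left with 1 library, that library was taken to vary like the others. Over all genes, library-size scaling gave 2145 lower calls in whole fins at 4 dpa (against 3929) and 1489 higher calls of the difference (against 2345). Against the fin of batch 3, 2588 genes were called lower in fibroblasts (against 3903), and 1 fit of all groups gave 3561 lower calls of the difference (against 2166). With 1 library left out, fibroblasts at 4 dpa had 2086 to 3756 higher and 1741 to 3769 lower calls, and the difference 1338 to 2150 higher calls. Of the list counts, 57 moved by over 1.5 times and 459 did not; natural killer genes higher in fins labelled 1 dpa were 22 with DESeq2 and 25 without the filter, against 14. Same-numbered libraries had weak correlations of their deviations: -0.003 in batch 1, -0.156, -0.0989 and 0.115 in batch 2 and 0.0751 in fibroblasts. In batch 2 only the third number correlated best with its own, while in fibroblasts each number did. With 2 libraries a group the check gives 1 value per comparison, so it cannot decide whether the numbers pair the samples there. With the replicate number as a block, il7r was at -2.6, lck at -1.78, zap70 at -1.58 and nitr1m at -4.46 in whole fins at 4 dpa, lck was at -2.05 in fibroblasts, and no call of the 4 genes changed. Depth limits nitr1m, which had at most 54 reads in a library.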
